A study of Drosophila melanogaster with 2 samples.

Results

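The Cpr genes of Drosophila melanogaster encode cuticle proteins that carry the Rebers and Riddiford domain, a conserved stretch that binds chitin. Members were defined by name, with earlier results of these data known. They were the protein-coding genes of the Ensembl annotation whose symbol starts with Cpr followed by a digit. That rule was met by 70 of the 13968 protein-coding genes of the chromosome arms. Binding was measured by ChIP-seq for the product of sugarbabe (sug), a GLIS-related transcription factor with zinc fingers. All embryos carried a transgene that expresses sug with a C-terminal GFP tag, were of mixed sex and 8 to 24 hours old, and were taken whole. An anti-GFP antibody was used for the precipitation. Both biological replicates belong to 1 group (n = 2), so no condition was set against another, and embryos without the tagged protein were not analysed here.

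Cuticle proteins are secreted by the epidermis and other ectodermal epithelia and assemble with chitin fibres into the layers of the cuticle. In the late embryo the first larval cuticle is laid down, and further sets of cuticle proteins are made at each moult. Many cuticle protein genes lie in tandem clusters that arose by duplication. Their expression follows the ecdysone pulses of the moulting cycle through nuclear receptors such as ftz-f1.

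Each summit, the highest point of a peak, has a signal score that the authors gave in column 7 of their lists, scaled within each list. A gene was counted as bound when a summit lay within 1 kb of one of its transcription start sites (TSSs). The main set was the authors' list of 9342 summits that passed the irreproducible discovery rate threshold (IDR set). Its signal scores had a lowest value of 223.8 and a median of 424.3. The pooled list and each replicate list held 30000 summits. All 9342 summits of the IDR set are the highest of the pooled list. Coordinates are on dm6. The depth of the libraries is unknown, as the files hold no counts. A whole embryo mixes many cell types, and a summit in few cells and weak binding in many cannot be told apart.

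Few Cpr genes were bound, and none within 200 bp of a start. An IDR summit lay within 1 kb of a TSS in 5 of the 70 Cpr genes (7.14%), against 39.3% of all protein-coding genes. The 5 genes were Cpr73D, Cpr67Fb, Cpr72Ec, Cpr49Aa and Cpr49Ab. They rested on 5 distinct summits in 4 peak intervals, since Cpr49Aa and Cpr49Ab shared 1 summit and Cpr73D had 2 in the same interval. The other 65 Cpr genes had no IDR summit within that distance. Members that share a summit or a cluster are not independent, so these shares are descriptions and no test was made on them.

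The sequences that follow show the ground under the summits discussed here, each 101 bases long and centred on the summit, on the plus strand of dm6. The capitals mark any of 7 words searched on both strands. They were AACNGGTT, the word of the epidermal factor Grainyhead, CAAGGNCA, a nuclear receptor word of the ftz-f1 type, GATAAG, the word of GATA factors, and GAGAG, that of the GAGA factor. The others were TATAAA, the word of the TATA box, CCCCCC, a run of cytosines known from GLIS-type sites, and TATCGATA, the DNA replication-related element of housekeeping promoters. No word of the set contains another whole. The first pair are the IDR summits of Cpr67Fb and Cpr72Ec. The last 3 are the summits below the IDR threshold with the highest signal at a Cpr gene that had no IDR summit. Windows that overlap an untranslated region, as both do at Cpr73D, and the window at Cpr49Aa and Cpr49Ab are not shown.
Cpr67Fb, chr3L:10893592-10893692: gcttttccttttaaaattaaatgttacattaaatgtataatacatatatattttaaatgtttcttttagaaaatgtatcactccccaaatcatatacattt
Cpr72Ec, chr3L:16368287-16368387: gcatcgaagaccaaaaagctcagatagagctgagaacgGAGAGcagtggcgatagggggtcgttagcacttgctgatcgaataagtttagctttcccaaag
Cpr67B, chr3L:9404395-9404495: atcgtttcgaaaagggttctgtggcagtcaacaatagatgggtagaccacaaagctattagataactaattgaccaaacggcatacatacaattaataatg
Cpr65Av, chr3L:6140244-6140344: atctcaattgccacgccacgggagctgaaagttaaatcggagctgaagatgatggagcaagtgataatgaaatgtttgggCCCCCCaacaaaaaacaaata
Cpr23B, chr2L:2837875-2837975: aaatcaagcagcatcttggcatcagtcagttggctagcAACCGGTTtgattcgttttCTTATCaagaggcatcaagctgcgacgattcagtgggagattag

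The window at Cpr67Fb held none of the words and was rich in A and T, with 19.8% G and C. The window at Cpr72Ec had 48.5% G and C and held GAGAG. At Cpr65Av a run of 6 C letters stood to the right of the summit. At Cpr23B the Grainyhead word stood in the same window as GATAAG, which reads on the minus strand. A match of letters is a description and shows no binding by the factor the word is named for.

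Cpr67Fb had a summit with no TSS of another gene within 1 kb. Its IDR summit at 10893642 on 3L lay 531 bp upstream of the start, in intergenic sequence between Cpr67Fa2 and Cpr67Fb. The signal was 392.8, which is 0.926 of the IDR median and rank 5150 of 9342. Replicate 1 had a summit 62 bp to the right, with a signal of 175.6 and rank 6972 in its own list. Replicate 2 had one 55 bp to the right, with a signal of 191.6 and rank 4994. Replicate 1 had a further summit 142 bp to the left, with a signal of 239.4, so its summits stood on both sides of the combined one. The gene spans 10894173 to 10894693 on the plus strand.

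Cpr49Aa and Cpr49Ab, neighbours on 2R that are both transcribed from the plus strand, shared a summit at 12377503. It lay 877 bp downstream of the Cpr49Aa start, past the end of that gene at 12377378, and 937 bp upstream of the Cpr49Ab start. The signal was 268, rank 7879 of 9342. Replicate 1 had no summit within 100 bp, nor any within 1 kb of either gene. Replicate 2 had one 84 bp to the right, with a signal of 80.5 and rank 11819. No other gene had a TSS within 1 kb.

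Cpr72Ec was bound at the edge of the window, by a summit closer to another gene. The summit at 16368337 on 3L lay 997 bp upstream of the Cpr72Ec start and 52 bp upstream of the start of CG4842, which is transcribed in the other direction. Its signal was 314.3, rank 6674 of 9342. Replicate 1 had a summit 7 bp away with a signal of 161, and replicate 2 one 3 bp away with a signal of 162. The position was therefore nearly the same in both replicate lists. A further summit 370 bp upstream of Cpr72Ec was below the IDR threshold, with a signal of 56.3 in the pooled list and partners of 31.0 in replicate 1 and 29.5 in replicate 2.

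At Cpr73D the summits lay in sequence shared with Ogdh, which encodes the 2-oxoglutarate dehydrogenase of the citric acid cycle. Cpr73D spans 16939100 to 16957689 on the minus strand of 3L and Ogdh spans 16954822 to 16968724 on the plus strand, so that the 5 prime parts of both genes overlap. The summit at 16957020 was in an intron, 669 bp downstream of the Cpr73D start and 419 bp from a start of Ogdh. It had the highest signal at any Cpr promoter, 490.7, rank 3868 of 9342 and 1.16 of the IDR median. Replicate 1 had no summit within 100 bp of it, and replicate 2 had one 66 bp away with a signal of 277.7. The summit at 16957223 was in a 5 prime UTR, 466 bp downstream of the Cpr73D start and 216 bp from that start of Ogdh, with a signal of 383.5. Its partner in replicate 1 had a signal of 354 and rank 2689 in that list. The partner in replicate 2 had a signal of 105.6 and rank 9410, outside the 9342 highest of that list. A stronger IDR summit at 16958976, in an intron of Ogdh and 1287 bp upstream of Cpr73D, had a signal of 1234.8. These peaks name a locus and not 1 gene.

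**Figure D1:**
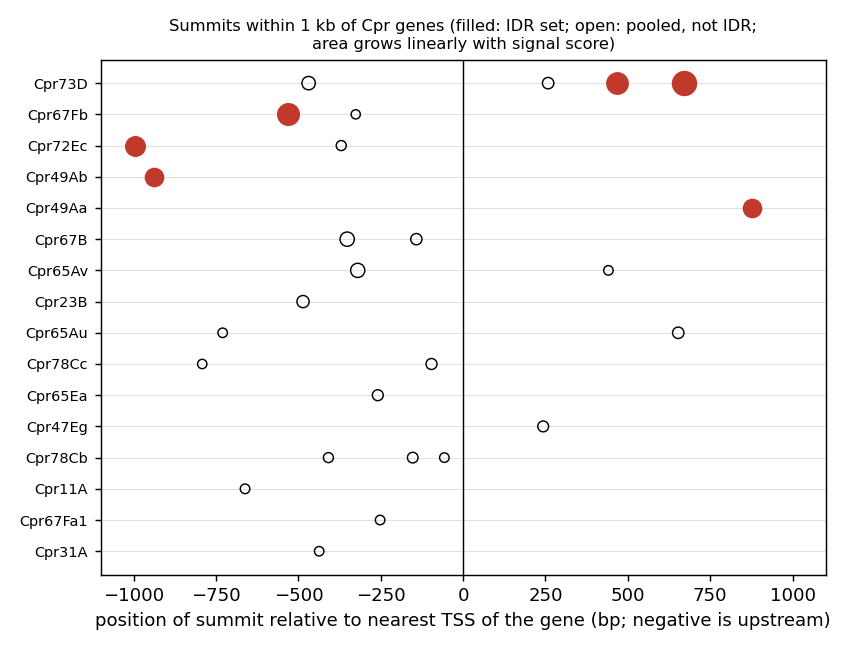
Summits of the IDR set (filled) and of the pooled list outside the IDR set (open) within 1 kb of the 16 Cpr genes that have any, by position relative to the nearest TSS of each gene in bp, with symbol area growing with the signal score. Of the filled symbols only those of Cpr73D and Cpr67Fb lie within 800 bp of the start, and none lies within 200 bp.

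The closest summit of a bound Cpr gene lay far from the start compared with other bound genes. In the 5 bound Cpr genes the closest IDR summit was at 466, 531, 877, 937 and 997 bp. It was within 200 bp in 0 of them, against 70.6% of the 5485 bound protein-coding genes. It was over 500 bp away in 4 of the 5, against 10.8% of all bound genes. For 3 of the 5 (Cpr72Ec, Cpr73D and Cpr49Ab) the strongest promoter summit was nearer to a start of another protein-coding gene. That was so for 27.4% of all bound genes.

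Just outside the limit of 1 kb lay Cpr47Eg, with an IDR summit at 1272 bp, and Cpr67Fa1, with one at 1528 bp. Just inside it lay Cpr72Ec at 997 bp and Cpr49Ab at 937 bp. The summit near Cpr47Eg, with a signal of 485.5, was 8 bp from the start of Vhl, the von Hippel-Lindau homologue. The summit near Cpr67Fa1 had a signal of 248.2 and no start of another protein-coding gene closer to it. Within 2 kb there were also Cpr76Ba, with a summit 1587 bp downstream of its start and a signal of 838.5, and Cpr65Ec, whose summit at 1639 bp was 25 bp from the start of form3. The summit of Cpr76Ba had no partner in replicate 1 and a signal of 609.3 in replicate 2. Cpr67Fa2 came within 2 kb through the Cpr67Fb summit, at 1928 bp.

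Across all members the distance to the nearest IDR summit had a median of 10997 bp, against 2794 bp for all protein-coding genes. The range over the members was 466 to 72591 bp, with Cpr12A and Cpr50Ca the most distant, at 72591 and 54694 bp. Within 5 kb of a TSS there was an IDR summit for 30% of the Cpr genes, against 59.1% of all protein-coding genes. Within 10 kb the shares were 45.7% and 71.4%. Only 1 of the 70 genes, Cpr73D, had an IDR summit inside its annotated span, and it is the longest member at 18590 bp. That count was not made over all protein-coding genes, whose median span is 2164.5 bp against 1093.5 bp for the Cpr genes.

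**Figure D2:**
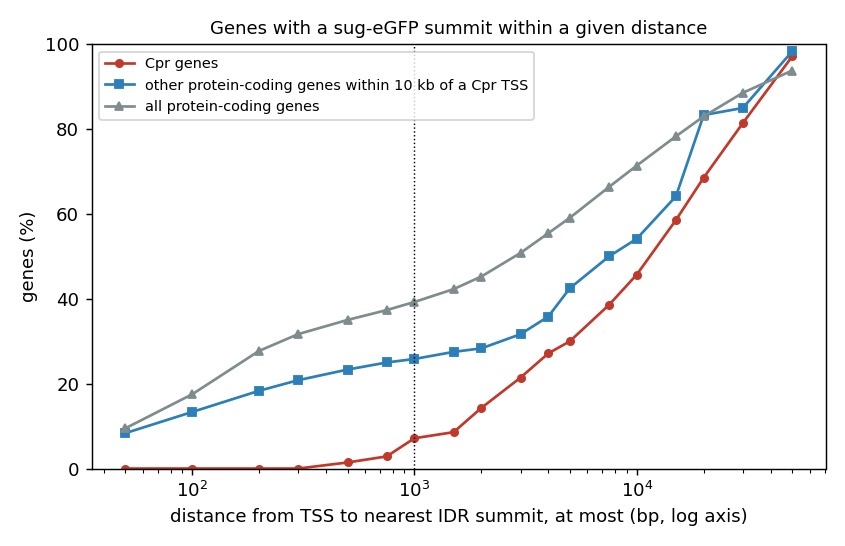
Share of genes, in percent, with an IDR summit within a given distance of a TSS (bp, log axis), for the 70 Cpr genes, 120 other protein-coding genes with a TSS within 10 kb of a Cpr TSS, and all 13968 protein-coding genes. The dotted line marks 1 kb, where the shares are 7.14%, 25.8% and 39.3%.

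The genes that surround the Cpr genes were bound more often than the Cpr genes themselves. The 120 protein-coding genes with a TSS within 10 kb of a Cpr TSS, leaving out the other cuticle and moulting lists, had an IDR summit within 1 kb in 31 cases (25.8%). The strongest was shared by CG11309 and CG7632, with a signal of 3942. Their starts nearest to Cpr78Cc are 3465 and 4117 bp from its start. For CG11309 the summit lay at another start of the gene, 85 bp away. The summit at ringer, a tubulin-binding protein, had a signal of 3847.1 and lay 77 bp from a start of that gene. Another start of ringer is 3175 bp from that of Cpr72Ea. Near Cpr23B, Duox had a signal of 781.8. It encodes a dual oxidase that takes part in cross-linking of the adult wing cuticle. Beside Cpr66Cb, Pex2, a peroxisome assembly gene, had a summit 6 bp from its start with a signal of 310.8. Some of the 31 genes share a summit with each other. Ogdh and CG4842 are counted among the 31 through summits described above at Cpr73D and Cpr72Ec.

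Grouped by position, with neighbours joined when the gap between Cpr genes was at most 10 kb, the 70 genes formed 34 loci. There were 13 clusters of more than 1 gene, which held 49 genes, and 21 single genes. A bound member was present in 3 of the 13 clusters and in 1 of the 21 single genes (Cpr73D). The 3 clusters were Cpr49Aa to Cpr49Ad with 2 of 4 genes bound, Cpr67Fa1 to Cpr67Fb with 1 of 3, and Cpr72Ea to Cpr72Ec with 1 of 3. Cpr67Fb and Cpr72Ec stand at the end of their clusters.

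Both of the largest clusters, of 7 Cpr genes each, had no bound member. The cluster Cpr47Ea to Cpr47Eg on 2R spans 26.7 kb and held 2 IDR summits, neither within 1 kb of a Cpr start, and 1 of its 3 interspersed genes was bound. The cluster Cpr65Au to Cpr65Az on 3L spans 30.4 kb (6131242 to 6161589) and is interspersed with 11 other genes, of which 10 encode other listed cuticle proteins. It held 0 IDR summits but 12 summits of the pooled list, the highest with a signal of 148.9. None of its 11 other genes was bound either. Clusters Cpr49Ae to Cpr49Ah, Cpr50Ca to Cpr50Cb, Cpr64Aa to Cpr64Ad, Cpr76Ba to Cpr76Bd, Cpr97Ea to Cpr97Eb and Cpr72Ea to Cpr72Ec held no summit of the pooled list in their spans. Each span runs from the first to the last base of its Cpr genes, so flanking sequence, where the Cpr72Ec summit lies, is left out. In all 13 clusters together, which cover 202.3 kb, there were 4 IDR summits, or 1.98 per 100 kb, against 6.98 per 100 kb over the chromosome arms without Y. Pooled summits numbered 13.4 per 100 kb in the clusters and 22.4 per 100 kb on the arms.

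**Figure D3:**
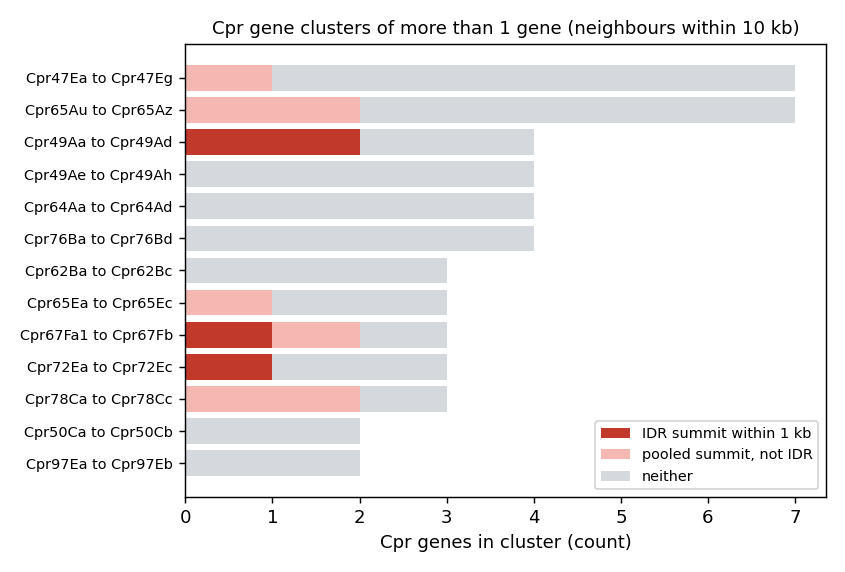
Number of Cpr genes in each of the 13 clusters of more than 1 gene, by whether a summit of the IDR set, a summit of the pooled list outside the IDR set, or neither lay within 1 kb of a TSS. Bound members appear in 3 clusters, and both clusters of 7 genes have none.

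Weaker summits were present at some further members. In the pooled list 16 of the 70 Cpr genes (22.9%) had a summit within 1 kb, against 54.5% of all protein-coding genes. The 11 genes with a pooled summit but none in the IDR set were led by Cpr67B, with a signal of 151.9 at 352 bp upstream, and Cpr65Av, with 148.9 at 320 bp upstream. Their −log10 q in the authors' pooled list were 3.71 and 3.72, below the value of 4.38 that all rows of the IDR set share. Of the 21 summits of the pooled list that lay within 1 kb of a Cpr gene and outside the IDR set, 17 had a −log10 q under 1.3. The same share over all pooled summits outside the IDR set is not given here, so the 17 only describe these summits. Cpr67B had partners in both replicates, with a signal of 78.2 in replicate 1 and 81.9 in replicate 2, and Cpr65Av had 94.0 in replicate 1 and 55.8 in replicate 2. Then followed Cpr23B with 100.6, Cpr65Au with 83.7 and Cpr78Cc with 74.7. The summit of Cpr23B was 92 bp from the start of CG3119. That of Cpr65Au was closer to the start of Lcp65Ag3, a larval cuticle protein gene just outside the span of the Cpr65Au to Cpr65Az cluster.

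Each replicate on its own gave a share as low. Among the 9342 highest summits of replicate 1, 3 of 70 Cpr genes (4.29%) were bound, against 37.4% of all protein-coding genes. In the same number of replicate 2, 4 of 70 (5.71%) were bound, against 40.1%. Cpr67Fb, Cpr72Ec and Cpr73D were bound in both sets. The fourth gene of replicate 2 was Cpr65Ay, with a signal of 141.2 and no summit within 1 kb in replicate 1 or in the pooled list. In the full lists 10 of 70 Cpr genes (14.3%) had a summit within 1 kb in each replicate, against 49.8% of all protein-coding genes. No summit of the pooled or either replicate list lay within 1 kb of 46 of the 70 genes, a count not made over all protein-coding genes.

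Of the 70 Cpr genes 63 (90%) have a single annotated TSS, against 73.5% of all protein-coding genes. Among genes with 1 TSS, 4 of the 63 Cpr genes (6.35%) were bound, against 31.7% of 10269 protein-coding genes. The median span was 1093.5 bp for Cpr genes and 2164.5 bp for all protein-coding genes. Reads from near-identical copies cannot be placed by their sequence alone. Over the 2 kb around the start, 61.5% of the 50-base windows of Cpr65Ax1 and 61.6% of those of Cpr65Ax2 occurred elsewhere in the genome. The other pair was Cpr67Fa1 and Cpr67Fa2, with 0.922% each, and the remaining 66 genes had no repeated window.

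Cpr promoters carried the TATA word at the place of a TATA box more often than other promoters. The letters TATAAA on the sense strand, starting 40 to 20 bases before the gene's start, were found in 34 of 70 Cpr genes (48.6%), against 7.78% of all protein-coding genes. The 50 bases before the start are given for 4 genes named above, on the strand of the gene, with TATAAA in capitals. Cpr72Ec and Cpr65Av carry it at that place, and Cpr67Fb and Cpr67B do not. Only these exact letters were counted, so a variant such as tatataa, which Cpr67B holds, was not.
Cpr72Ec, chr3L:16367341-16367390, minus strand: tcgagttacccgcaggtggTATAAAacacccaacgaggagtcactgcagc
Cpr67Fb, chr3L:10894123-10894172, plus strand: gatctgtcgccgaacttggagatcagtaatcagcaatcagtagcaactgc
Cpr65Av, chr3L:6139975-6140024, minus strand: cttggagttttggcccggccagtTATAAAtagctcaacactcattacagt
Cpr67B, chr3L:9404747-9404796, plus strand: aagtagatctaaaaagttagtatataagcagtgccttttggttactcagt

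Of the 34 Cpr genes with the word at that place 3 (8.82%) were bound, namely Cpr49Aa, Cpr49Ab and Cpr72Ec, against 19.7% of the 1087 protein-coding genes with it. Of the 36 Cpr genes without it 2 (5.56%) were bound, Cpr67Fb and Cpr73D. The share among all protein-coding genes without it was not taken, and with or without it 39.3% of all were bound. Anywhere from 250 bases before to 50 after the start, on either strand, TATAAA was in 71.4% of Cpr promoters and 45.9% of all. GATAAG was in 5.71% of Cpr promoters and 18.9% of all, and TATCGATA in 1.43% and 9.36%. The Grainyhead word was in 5.71% and 4.62%, CAAGGNCA in 1.43% and 1.93%, GAGAG in 32.9% and 29.8%, and CCCCCC in 4.29% and 2.74%. Within 100 bp of the 5 IDR summits at Cpr genes only GAGAG occurred, at 2 of them (Cpr72Ec and the intronic summit of Cpr73D). Around all 9342 IDR summits TATAAA was in 26.7%, GAGAG in 26.0%, GATAAG in 25.8% and CCCCCC in 9.07%. TATCGATA was in 3.76%, the Grainyhead word in 2.75% and CAAGGNCA in 1.47%.

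Other structural genes of the cuticle had 1 bound member in 60, and 12 of 41 enzymes and regulators of cuticle formation (29.3%) were bound, against 39.3% of all protein-coding genes. Among 26 other genes for cuticle proteins of the Rebers and Riddiford type (Lcp, Ccp84A, Edg78E, Edg84A, Acp65Aa and Pcp), 1 was bound, Lcp9, with a signal of 230.3 at 446 bp. Among 25 Tweedle genes, which encode another class of cuticle protein, and 9 genes of the obstructor type, which encode chitin-binding matrix proteins, 0 were bound. In the list for chitin synthesis and matrix assembly 5 of 20 were bound, led by Cht7, a chitinase, with 798.4, and Gfat2 and mmy, enzymes of the path to UDP-N-acetylglucosamine, with 607.4 and 563.4. Of 9 tanning and pigment genes 2 were bound, Pu, which encodes GTP cyclohydrolase, with 341.4 and stw, a laccase, with 240.9. Of 12 epidermal and moulting regulators 5 were bound, with the ecdysone receptor partner usp at 1852.9, Eip75B at 1436.8 and vri at 868.8. The list includes ftz-f1, bound at 223 bp upstream with a signal of 756.9. In the pooled list 80% of the chitin list and 83.3% of the regulators had a summit within 1 kb. The share was 66.7% of the tanning list, 33.3% of the obstructor list, 20% of the Tweedle genes and 19.2% of the other Rebers and Riddiford genes. Over all protein-coding genes it was 54.5%. No test was made between these lists.

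**Figure D4:**
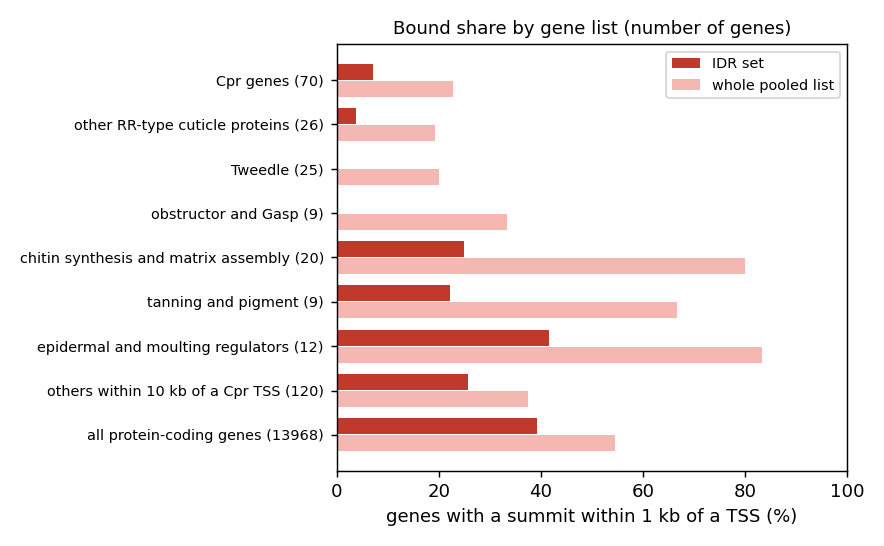
Share of genes, in percent, with a summit within 1 kb of a TSS in the IDR set and in the whole pooled list, for the Cpr genes, the other cuticle and moulting lists, neighbouring genes and all protein-coding genes, with the number of genes in brackets. Cpr, other Rebers and Riddiford type, Tweedle and obstructor genes lie between 0 and 7.14% in the IDR set, against 39.3% of all genes.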

How the data were processed

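ChIP-seq peak lists of 2 biological replicates were used. Per the text files deposited with the lists, coordinates are on dm6, each replicate and the pooled alignments had peaks called with a control, and the IDR set was made from these 3 lists. The aligner and peak caller were not given in the sources used here. The authors' signal score is scaled within a list and was never compared between lists. The −log10 q the authors deposited is 4.38 in all rows of the IDR set and was used only to describe pooled summits. Depth is unknown, so no counting interval is given.

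Ensembl release 115 gave the TSSs of all transcripts, and the RefSeq copy of dm6 gave sequence. All peaks on the arms lay within its chromosome lengths. In 2 IDR rows an offset beyond the interval was cut to the interval's end. A replicate summit within 100 bp counted as a partner. With no contrast between samples, no test was run. Replicates are separate biological samples per the labels. Named genes are all bound members, the nearest on each side of 1 kb, the 5 highest with a pooled summit but none in the IDR set, and up to 3 per list, plus ftz-f1, Cpr65Ay and neighbouring genes, which were picked after their values were seen. The members and lists were chosen with earlier results of these data known. The single-TSS, neighbouring-gene and TATA position groups were added later. The count was checked on implanted summits. Computations used Python 3.11.15.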

Additional observations from a re-analysis of the deposited data

How the results depend on the processing

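With the IDR set, 5 Cpr genes in 4 loci and 5485 protein-coding genes were bound, through 5 distinct summits at Cpr genes. With a promoter of 500 bp there were 1 Cpr gene (Cpr73D, 1.43%), 1 summit and 1 locus, against 35.0% of all protein-coding genes. A promoter of 2 kb gave 10 Cpr genes (14.3%), 11 summits and 7 loci, against 45.3% of all protein-coding genes. With the 4671 IDR summits of higher signal there were 1 gene (Cpr73D), 1 summit and 1 locus, and 3391 protein-coding genes. With all pooled summits there were 16 genes, 26 summits and 12 loci, 5 other Rebers and Riddiford type genes against 1, and 5 Tweedle genes against 0. From the highest summits of 1 replicate alone the Cpr count was 3 without replicate 2 and 4 without replicate 1, and Cpr49Aa and Cpr49Ab were bound in neither. The cause of these shifts was not tested, beyond that wider windows and longer lists can only add genes. Overlap of intervals, gene starts alone and neighbour distances of 5 or 20 kb kept all counts within 1.5 times. The Cpr share was below that of all protein-coding genes in the IDR set and in each of the 8 alternatives that count genes, at 0.0408 to 0.419 of it. No paired analysis was possible because there was 1 group.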
